A study of Rattus norvegicus with 6 samples.

Results

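Genes of cell division and DNA replication were followed in the renal cortex of male Sprague-Dawley (Crl:CD(SD)) rats. The set held 42 genes named for their roles in the cell cycle: 11 of DNA replication and nucleotide supply, 30 of mitosis, and the G1 cyclin gene Ccnd1. A gene was represented by its brightest probe among those well above background on all 3 arrays of a group. Of the 42 genes, 37 could be measured in this way, among 12118 named and tested genes. No probe's accession matched Mcm5, Bub1b, Cenpe or Top2a, and the Aurkb probe did not stand well above background in a single array. Of the 37 measured genes, 34 were well above background on all 6 arrays. The other 3 entered through the vehicle group only: Cenpf and Cdca8 cleared background on 2 treated arrays and Kif2c on 0, so their fold changes are given as descriptions only.

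The rats were 5 weeks old at purchase. The vehicle group (n = 3) received corn oil for 4 weeks, and 3 treated animals received sulfone bis(p-chlorophenyl) at 250 mg/kg/day for the same 4 weeks. Each animal gave 1 Cy3-labelled sample of total RNA on 1 Agilent array, and 1 dose and 1 time were studied. Values are log2 of the processed spot signal minus the array's 75th percentile, so a value of 0 is a spot at that percentile, and a log2 fold change is the treated mean minus the vehicle mean.

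The arrays had similar shares of probes well above background, 66.1% to 68.2%, and correlations between arrays of 0.982 to 0.994 across tested probes. All 10 proximal tubule markers were well above background on all 6 arrays. Slide 1, read in scan 1, held the 3 vehicle arrays and treated 1, whereas slide 2, read in scan 2, held treated 2 and 3. Before scaling, the 75th percentile of the signal was 1012 to 1101 on slide 1 but 910 and 917 on slide 2. Liver transcripts differed between animals: the summed linear signal of 10 such genes ranged from 10.6 to 30.2 in vehicle and from 13.8 to 50.3 in treated arrays, with treated 3 highest. In the limma fit across 40643 probes, 3 probes passed an adjusted p of 0.05, which was 0.00738% of them.

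A dividing cell first copies its DNA and then separates the copies. The Mcm proteins form the helicase that opens DNA at replication forks, Pcna holds the polymerase on its template, and ribonucleotide reductase, thymidylate synthase and thymidine kinase supply the building blocks. Cyclins A and B with Cdk1 drive entry into mitosis, where the mitotic kinases, the kinetochore and the spindle motors move the chromosomes. Replication genes are commonly switched on by E2F factors in late G1, and mitosis genes later through CCAAT boxes and the cell cycle genes homology region, named CHR. The adult renal tubule has few dividing cells, so these transcripts are usually scarce there. In tissue samples, fewer dividing cells and less of a transcript in each dividing cell cannot be told apart.

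No gene of the set passed the test. The limma adjusted p-values ranged from 0.134 to 0.906, while 2 of the 12118 tested genes (0.0165%) passed. At an unadjusted p under 0.05, 12 of the 37 genes were lower in treated cortex and 2 were higher, against 11.3% and 10.1% of all tested genes. The log2 fold change was below 0 for 34 of the 37, against 52.5% of all tested genes, and its median was -0.47, against -0.01 for all tested genes. The treated arrays lay wholly below the vehicle arrays for 13 genes (16.8% of all tested genes did) and wholly above for 2 (13.9% of all tested genes did). These counts include Cenpf, Cdca8 and Kif2c, which entered through the vehicle group only. Cenpf is among the 12 lower genes, and Cenpf and Kif2c are among the 13. With only probes well above background on all 6 arrays, 31 of 34 genes were below 0. Of these 34, 12 were lower and 2 higher at an unadjusted p under 0.05 in limma, against 4663 and 3338 of 38454 probes.

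Treated 3 carried much of the difference. It had the lowest value of the 6 arrays for 29 of the 37 genes, whereas it was lowest for 23.7% of all tested genes. Among the 34 genes well above background on all 6 arrays, it was lowest for 26. Vehicle 2 was the highest of the 6 arrays for 22 of the 37, against 14.5% of all tested genes. Without treated 3, the median log2 fold change was -0.26. In that fit, 8 genes were lower (7.48% of all tested genes) and 2 higher (2559 of 40768 tested probes) at an unadjusted p under 0.05. The number of genes lower at an unadjusted p under 0.05, 12 with all arrays, was counted anew in each other fit. It was 4 without vehicle 1 (6.85% of all tested genes), 5 without vehicle 2 (6.53%) and 4 with slide as a random block (7.78%). It was 16 without vehicle 3 (3621 of 41185 tested probes were lower), 17 without treated 1 (7381 of 41161) and 12 without treated 2 (3343 of 40847). Treated 1 alone, the only treated array on the slide of the vehicle arrays, gave a median of -0.25 against the vehicle mean, with 29 of 37 genes below 0 (56.8% of all tested genes were). A fit with slide as a fixed block gives these same fold changes, since slide 2 held no vehicle array, so it is not a separate check. With slide as a fixed block, 0 genes of the set passed at an adjusted p of 0.05 and 0 had an unadjusted p under 0.05 in limma, where 7.45% of all tested genes were lower and 6.40% higher. Without treated 1, 6 genes of the set were lower at an adjusted p of 0.05: Mcm3, Mcm4 (-0.51), Foxm1 (-0.87), Pttg1 (-0.45), Nuf2 (-1.11) and Kif23 (-0.52). In that comparison 5.31% of all tested genes were called lower, and all treated arrays lay on slide 2 and all vehicle arrays on slide 1, so that slide and treatment cannot be told apart.

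**Figure D1:**
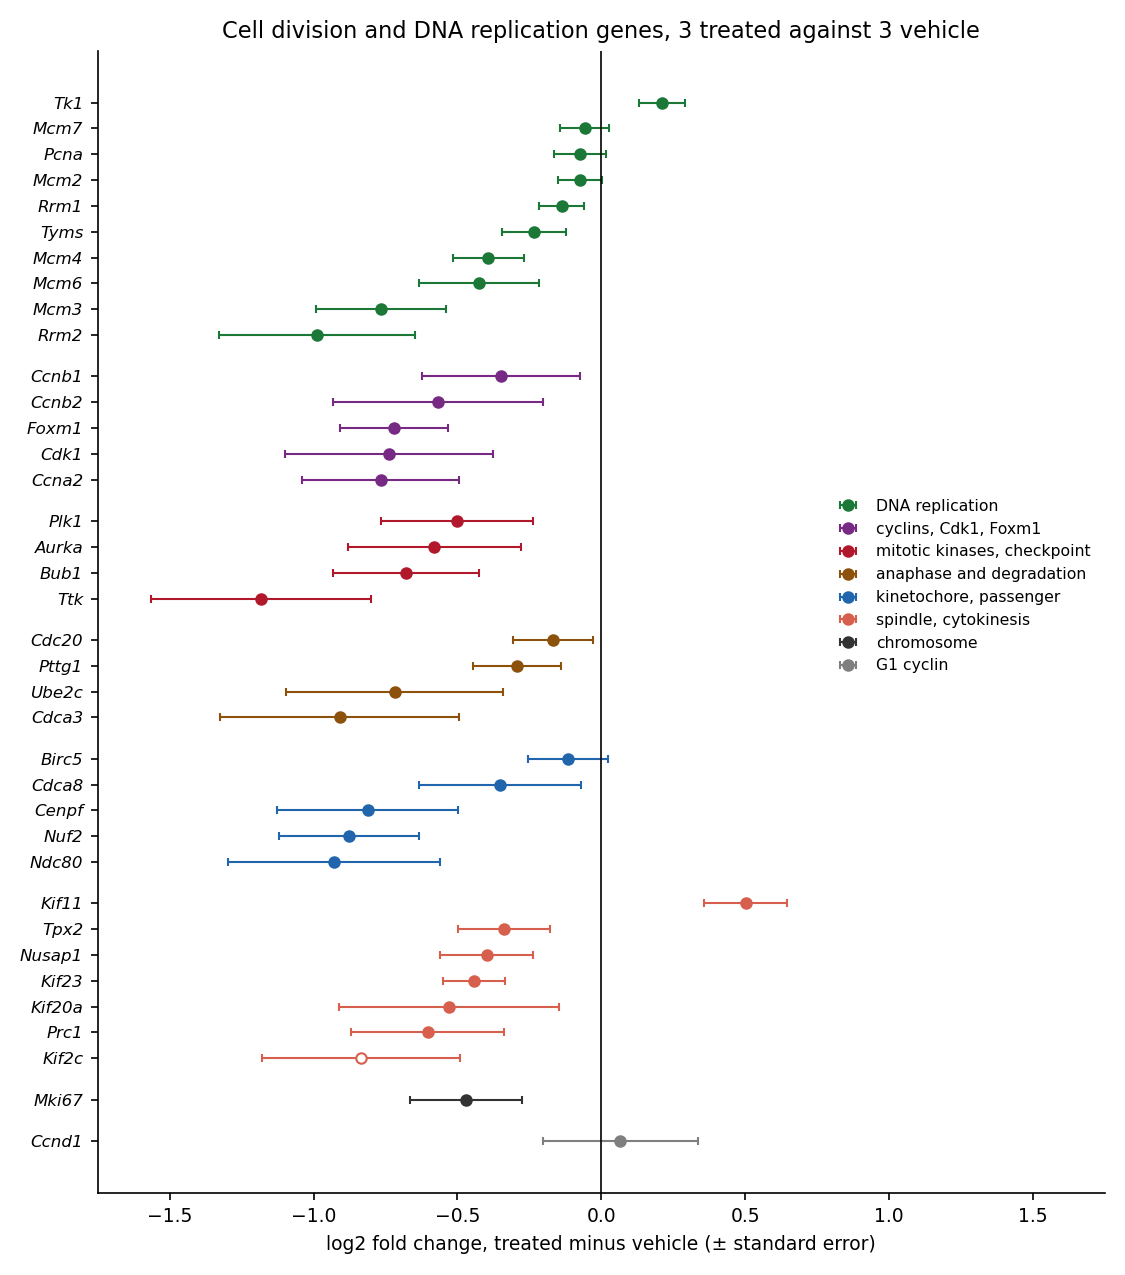
Log2 fold change (x axis, treated minus vehicle, n = 3 each) of the 37 measured genes, grouped by role; bars are the limma standard error and the open circle is Kif2c, not well above background on any treated array. Nearly all points lie left of 0, with Kif11 (0.50), Tk1 (0.21) and Ccnd1 (0.07) to the right.

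Replication and mitosis genes were compared array by array. For each gene the mean over the vehicle arrays was subtracted, and the median over each set was taken. The 10 measured replication genes had set medians of 0.05, 0.03, -0.08 across vehicle animals 1 to 3 against -0.18, -0.10, -0.25 across treated animals 1 to 3. The 26 measured mitosis genes had 0.09, 0.18, -0.28 across vehicle animals 1 to 3 against -0.27, -0.41, -1.16 across treated animals 1 to 3. Vehicle 3 and treated 1 thus had nearly the same mitosis level, and treated 3 lay far below the other 5 arrays. The 26 mitosis genes include Cenpf, Cdca8 and Kif2c, which entered through the vehicle group only, so these medians are descriptions. The replication medians of the treated arrays were all below those of the vehicle arrays, within a narrow range. Gene by gene, the treated arrays lay wholly below the vehicle arrays for 4 of the 10 and wholly above for Tk1. For the 26 mitosis genes these counts were 9, with Cenpf and Kif2c among them, and 1 (Kif11). Among all tested genes the shares were 16.8% and 13.9%.

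The replication median minus the mitosis median came to -0.05, -0.15, 0.20 across vehicle animals 1 to 3 against 0.09, 0.32, 0.90 across treated animals 1 to 3. The group means were 0.00 ± 0.18 (SD, n = 3) for vehicle and 0.44 ± 0.42 (SD, n = 3) for treated arrays. The groups overlapped, since treated 1 lay below vehicle 3, and no test was made because the genes were chosen with results of these data known. The difference between the group means was 0.43 with all arrays, 0.20 without treated 3 and 0.09 within slide 1. With normexp background correction it was 0.21. Treated 3 minus the mean of treated 1 and 2 had a median of -0.83 over the mitosis genes and -0.19 over the replication genes, and was below 0 in 25 of 26 and 8 of 10 genes (49.9% of all tested genes). Cenpf, Cdca8 and Kif2c are again among the 26, and in every mitosis median used here.

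**Figure D2:**
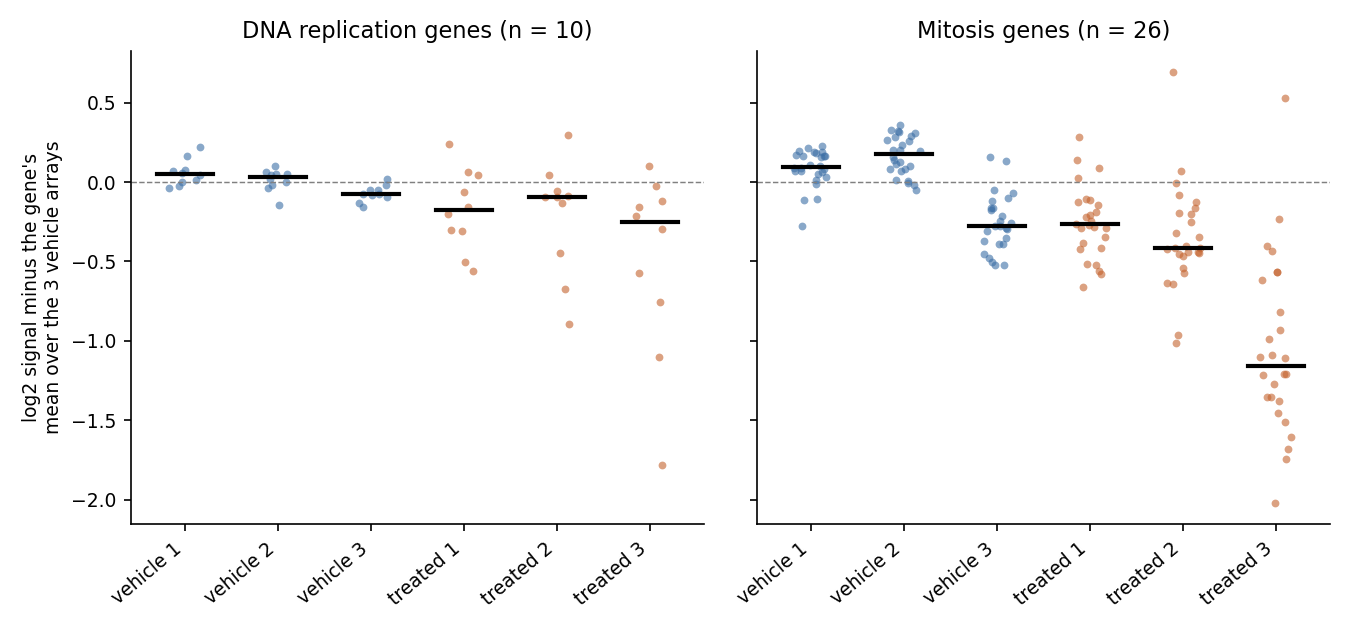
Each point is 1 gene on 1 array (y axis, log2 signal minus that gene's mean over the 3 vehicle arrays), in blue for vehicle and orange for treated; black lines are medians. Replication medians stay between -0.25 and 0.05, while mitosis medians run from 0.18 in vehicle 2 to -1.16 in treated 3. The mitosis genes include Cenpf, Cdca8 and Kif2c, which entered through the vehicle group only.

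The sequence in front of the genes was then examined. RefSeq windows from 250 bases before to 50 bases after the start site (GRCr8) were available for 34 of the 42 genes, with the outermost start taken for a gene with several. Each was searched on both strands for CCAAT, for TTTGAA or TTCGAA (CHR), and for TTCCCGC or TTGGCGC (E2F). These motifs can overlap one another, as ATTGG, the reverse complement of CCAAT, shares bases with TTGGCGC. CHR letters stood in 17 of 25 mitosis windows (68.0%) and 3 of 9 replication windows (33.3%), against 19.5% of 27457 genes with a window and 14.2% of the 9889 tested ones. E2F letters stood in 6 of 9 replication windows (66.7%) and 3 of 25 mitosis windows (12.0%), against 6.65% of all genes with a window and 11.2% of the tested ones. CCAAT stood in 19 mitosis windows (76.0%) and 6 replication windows (66.7%), against 37.8% of all genes with a window. CCAAT and CHR stood together in 14 mitosis windows (56.0%), against 7.87% of all genes with a window. A match is a run of letters and was not shown to be a bound site.

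The windows below belong to the gene with the largest absolute log2 fold change in each role group, among those with a window and well above background on all 6 arrays, and are given so that the motif layout of mitosis and replication genes can be compared. They are written 5′ to 3′ along the gene, with matches in capitals. Cdk1 lies on the plus strand (chr20:19265043-19265342), Ttk on the plus strand (chr8:93634389-93634688), Ndc80 on the minus strand (chr9:118887480-118887779), Mki67 on the minus strand (chr1:199952544-199952843), Cdca3 on the plus strand (chr4:159320953-159321252), Prc1 on the plus strand (chr1:143659231-143659530) and the replication gene Mcm3 on the minus strand (chr9:30733697-30733996).
Cdk1: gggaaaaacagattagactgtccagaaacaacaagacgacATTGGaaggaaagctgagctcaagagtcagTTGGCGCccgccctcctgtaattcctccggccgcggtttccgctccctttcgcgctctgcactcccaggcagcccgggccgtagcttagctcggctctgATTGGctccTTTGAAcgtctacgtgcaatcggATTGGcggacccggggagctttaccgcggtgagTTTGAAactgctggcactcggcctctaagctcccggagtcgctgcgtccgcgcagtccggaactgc
Ttk: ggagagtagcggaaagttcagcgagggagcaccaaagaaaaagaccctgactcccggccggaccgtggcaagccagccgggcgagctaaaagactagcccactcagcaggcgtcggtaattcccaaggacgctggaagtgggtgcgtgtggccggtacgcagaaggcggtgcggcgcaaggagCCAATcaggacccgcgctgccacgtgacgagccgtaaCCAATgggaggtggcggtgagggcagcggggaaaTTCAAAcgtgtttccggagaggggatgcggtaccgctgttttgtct
Ndc80: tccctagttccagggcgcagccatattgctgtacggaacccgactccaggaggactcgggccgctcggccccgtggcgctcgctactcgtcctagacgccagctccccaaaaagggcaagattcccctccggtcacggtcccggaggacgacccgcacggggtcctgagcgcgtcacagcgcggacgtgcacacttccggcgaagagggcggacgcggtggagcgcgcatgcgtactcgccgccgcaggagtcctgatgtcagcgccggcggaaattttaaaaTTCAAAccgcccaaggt
Mki67: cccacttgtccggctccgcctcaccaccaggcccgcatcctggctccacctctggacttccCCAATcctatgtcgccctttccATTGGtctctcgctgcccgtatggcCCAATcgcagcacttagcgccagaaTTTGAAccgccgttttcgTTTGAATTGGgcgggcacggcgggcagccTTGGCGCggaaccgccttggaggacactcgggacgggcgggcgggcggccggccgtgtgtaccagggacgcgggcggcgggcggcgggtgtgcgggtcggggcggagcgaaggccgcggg
Cdca3: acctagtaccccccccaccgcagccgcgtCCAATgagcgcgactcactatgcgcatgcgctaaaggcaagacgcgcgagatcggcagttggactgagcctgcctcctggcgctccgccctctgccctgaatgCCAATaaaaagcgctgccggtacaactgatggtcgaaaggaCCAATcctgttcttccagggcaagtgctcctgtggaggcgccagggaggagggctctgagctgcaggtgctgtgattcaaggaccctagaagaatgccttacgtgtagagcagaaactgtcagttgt
Prc1: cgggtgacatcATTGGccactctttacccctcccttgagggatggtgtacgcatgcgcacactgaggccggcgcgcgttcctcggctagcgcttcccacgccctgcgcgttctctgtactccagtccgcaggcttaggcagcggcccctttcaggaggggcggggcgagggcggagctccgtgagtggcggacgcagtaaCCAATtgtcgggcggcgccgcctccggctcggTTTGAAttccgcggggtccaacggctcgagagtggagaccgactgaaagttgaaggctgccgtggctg
Mcm3: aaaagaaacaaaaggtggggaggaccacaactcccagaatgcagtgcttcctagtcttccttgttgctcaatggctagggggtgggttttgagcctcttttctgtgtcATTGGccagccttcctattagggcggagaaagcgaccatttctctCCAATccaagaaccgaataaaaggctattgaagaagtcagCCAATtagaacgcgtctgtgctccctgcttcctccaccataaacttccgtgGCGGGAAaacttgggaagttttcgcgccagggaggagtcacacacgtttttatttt
Cdk1 held 3 CCAAT boxes, 2 CHR runs and an E2F run, and Ttk held 2 CCAAT boxes upstream of a single CHR run 5 bases past the start. Mcm3 held 3 CCAAT boxes and an E2F run but no CHR letters. Prc1 held 2 CCAAT boxes and a CHR run, Cdca3 held 3 CCAAT boxes only, and Ndc80 a CHR run only.

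Among the replication genes, the log2 fold changes of the helicase subunits ran from -0.77 to -0.06. Mcm3 read -0.34, -0.71, -0.64 in vehicle animals 1 to 3 against -0.86, -1.46, -1.67 in treated animals 1 to 3, which is a log2 fold change of -0.77 (standard error 0.22, adjusted p 0.168 by limma). The groups did not overlap, and the other 2 Mcm3 probes well above background on all 6 arrays gave -0.65 and -0.50. Mcm2 read -0.78, -0.86, -0.93 in vehicle animals 1 to 3 against -0.92, -0.99, -0.88 in treated animals 1 to 3, which is a log2 fold change of -0.07 (standard error 0.08, adjusted p 0.608 by limma). Its 6 values lay within a narrow band with no order by group. Mcm4 read -0.51, -0.59, -0.63 in vehicle animals 1 to 3 against -0.73, -1.02, -1.15 in treated animals 1 to 3, which is a log2 fold change of -0.39 (standard error 0.12, adjusted p 0.180 by limma). A second, dim Mcm4 probe had 0.18, so the 2 probes of this gene disagree. Mcm6 and Mcm7 had log2 fold changes of -0.43 (SE 0.21) and -0.06 (SE 0.08).

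Pcna, the sliding clamp of the polymerases, read 1.74, 1.79, 1.69 in vehicle animals 1 to 3 against 1.78, 1.68, 1.53 in treated animals 1 to 3. The groups overlapped at a log2 fold change of -0.07 (standard error 0.09, adjusted p 0.670 by limma). Rrm2, the cell-cycle-regulated subunit of ribonucleotide reductase, read 1.08, 1.13, 0.87 in vehicle animals 1 to 3 against 0.52, 0.35, -0.76 in treated animals 1 to 3. Its log2 fold change of -0.99 (standard error 0.34, adjusted p 0.199 by limma) was the lowest of the replication genes, and -0.59 without treated 3. A second Rrm2 probe well above background on all 6 arrays gave -0.44. The last 2 tested Rrm2 probes cleared background on 0 and 2 treated arrays, so their fold changes are not given. Rrm1, the constant subunit of the same enzyme, had a log2 fold change of only -0.14 (SE 0.08). Tyms, thymidylate synthase, had -0.23 (SE 0.11). Tk1, thymidine kinase, ran the other way, with 0.41, 0.46, 0.46 across vehicle animals 1 to 3 against 0.69, 0.74, 0.55 across treated animals 1 to 3, a log2 fold change of 0.21 (standard error 0.08, adjusted p 0.221 by limma).

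Within mitosis, all 5 cyclin, Cdk1 and Foxm1 genes had log2 fold changes below 0, with a median of -0.72. Cdk1, the kinase that starts mitosis, read 0.78, 1.05, 0.36 in vehicle animals 1 to 3 against 0.46, 0.29, -0.78 in treated animals 1 to 3, which is a log2 fold change of -0.74 (standard error 0.36, adjusted p 0.300 by limma). Only treated 3 lay well apart, and the groups overlapped. Ccna2, cyclin A2, read -1.35, -1.20, -1.99 in vehicle animals 1 to 3 against -2.03, -2.09, -2.72 in treated animals 1 to 3, the lowest log2 fold change of this group at -0.77 (standard error 0.27, adjusted p 0.208 by limma). Vehicle 3 lay close to treated 1 and 2, and 3 Ccna2 probes gave -0.85 to -0.77. Ccnb1, cyclin B1, read -2.45, -2.33, -2.82 in vehicle animals 1 to 3 against -2.64, -2.54, -3.46 in treated animals 1 to 3, with a log2 fold change of -0.35 (standard error 0.27, adjusted p 0.497 by limma) that was -0.06 without treated 3. Foxm1, the transcription factor that drives many mitosis genes, had a log2 fold change of -0.72 (standard error 0.19, adjusted p 0.144 by limma), -0.53 without treated 3, with no overlap of the groups.

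The 4 measured mitotic kinase and checkpoint genes had a median of -0.63. Ttk, the kinase that starts the spindle checkpoint, read -2.63, -2.38, -2.92 in vehicle animals 1 to 3 against -3.21, -3.61, -4.67 in treated animals 1 to 3. Its log2 fold change of -1.18 (standard error 0.38, adjusted p 0.186 by limma), a 2.27-fold lower signal, was the lowest of all 37 genes. The groups did not overlap, the second Ttk probe gave -1.07, and the value was -0.76 without treated 3. With normexp background correction Ttk had -0.50, less negative than Rrm2 at -0.95, so its size and rank depend on the background correction. Plk1, a kinase of spindle assembly, read -0.53, -0.49, -0.83 in vehicle animals 1 to 3 against -0.82, -0.81, -1.70 in treated animals 1 to 3, which is a log2 fold change of -0.50 (standard error 0.26, adjusted p 0.327 by limma). Treated 1 and 2 matched vehicle 3, and a second Plk1 probe gave -0.27. Bub1, of the spindle checkpoint, and Aurka, the centrosomal kinase, had -0.68 (SE 0.25) and -0.58 (SE 0.30), without overlap of the groups.

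Genes that time anaphase and protein destruction had a median of -0.51. Cdca3, a trigger of mitotic entry, read -0.91, -0.71, -1.59 in vehicle animals 1 to 3 against -1.42, -1.71, -2.81 in treated animals 1 to 3, which is a log2 fold change of -0.91 (standard error 0.42, adjusted p 0.275 by limma). Cdc20, the activator of the anaphase-promoting complex, read -0.41, -0.37, -0.54 in vehicle animals 1 to 3 against -0.35, -0.63, -0.84 in treated animals 1 to 3, which is a log2 fold change of -0.17 (standard error 0.14, adjusted p 0.515 by limma). The groups overlapped for both. Ube2c, the ubiquitin-conjugating enzyme of that complex, had -0.72 (SE 0.38), and Pttg1, which holds separase inactive, had -0.29 (SE 0.15).

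The 5 measured kinetochore and passenger genes all had log2 fold changes below 0. Cenpf and Cdca8, each on 2 treated arrays only, are among them. Ndc80, which binds microtubules at the kinetochore, read -2.41, -2.34, -3.06 in vehicle animals 1 to 3 against -3.26, -3.05, -4.28 in treated animals 1 to 3, which is a log2 fold change of -0.93 (standard error 0.37, adjusted p 0.234 by limma). Vehicle 3 was level with treated 2. Its partner Nuf2 had -0.88 (SE 0.24) with no overlap, and Cenpf had -0.81 (SE 0.32). Birc5, or survivin, read -1.02, -0.97, -0.76 in vehicle animals 1 to 3 against -0.78, -1.17, -1.15 in treated animals 1 to 3, which is a log2 fold change of -0.12 (standard error 0.14, adjusted p 0.659 by limma). Cdca8, a partner of Birc5 in the chromosomal passenger complex, had -0.35 (SE 0.28), and -0.04 without treated 3.

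Spindle motors and cytokinesis genes had a median of -0.44, with Kif11 opposite to the rest. Kif11, the motor that pushes spindle poles apart, read 2.62, 2.42, 2.26 in vehicle animals 1 to 3 against 2.72, 3.13, 2.96 in treated animals 1 to 3, which is a log2 fold change of 0.50 (standard error 0.14, adjusted p 0.163 by limma). All treated arrays were above all vehicle arrays, a second probe gave 0.45, and the value was 0.49 without treated 3 and 0.28 for treated 1 alone. Kif2c, which shortens microtubules, had -5.42, -5.00 and -5.01 in vehicle animals 1 to 3, and in no treated array did it clear background, where it read -5.73, -5.47 and -6.75. With each treated array set to its dimmest signal well above background (or to the measured one, if brighter), it was at least 1.31-fold lower. This bound was not tested, and the fit to the measured signals gave an adjusted p of 0.245 in limma. With this bound in place of its fitted value the median over the 26 mitosis genes was -0.55, against -0.57. Prc1, which bundles microtubules for cytokinesis, read -1.69, -1.47, -2.11 in vehicle animals 1 to 3 against -2.05, -2.17, -2.86 in treated animals 1 to 3, which is a log2 fold change of -0.60 (standard error 0.26, adjusted p 0.263 by limma). It had the lowest log2 fold change of this group among genes well above background on all 6 arrays, and treated 1 lay above vehicle 3. Kif23 and Kif20a, motors of cytokinesis, had log2 fold changes of -0.44 (SE 0.11) and -0.53 (SE 0.38), and the spindle genes Tpx2 and Nusap1 had -0.34 (SE 0.16) and -0.40 (SE 0.16).

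Mki67, which encodes the proliferation antigen Ki-67, read 0.17, 0.08, -0.26 in vehicle animals 1 to 3 against -0.19, -0.40, -0.82 in treated animals 1 to 3. The log2 fold change was -0.47 (standard error 0.19, adjusted p 0.247 by limma), and treated 1 was slightly above vehicle 3. The 4 dimmer Mki67 probes gave -0.79 to -0.60. Ccnd1, the cyclin of G1, did not follow the mitosis genes: it read 2.46, 2.75, 3.23 in vehicle animals 1 to 3 against 2.90, 2.47, 3.26 in treated animals 1 to 3, which is a log2 fold change of 0.07 (standard error 0.27, adjusted p 0.906 by limma). Treated 3 was its highest array, and its direction turned to -0.13 without treated 3 and to -0.11 without vehicle 1.

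**Figure D3:**
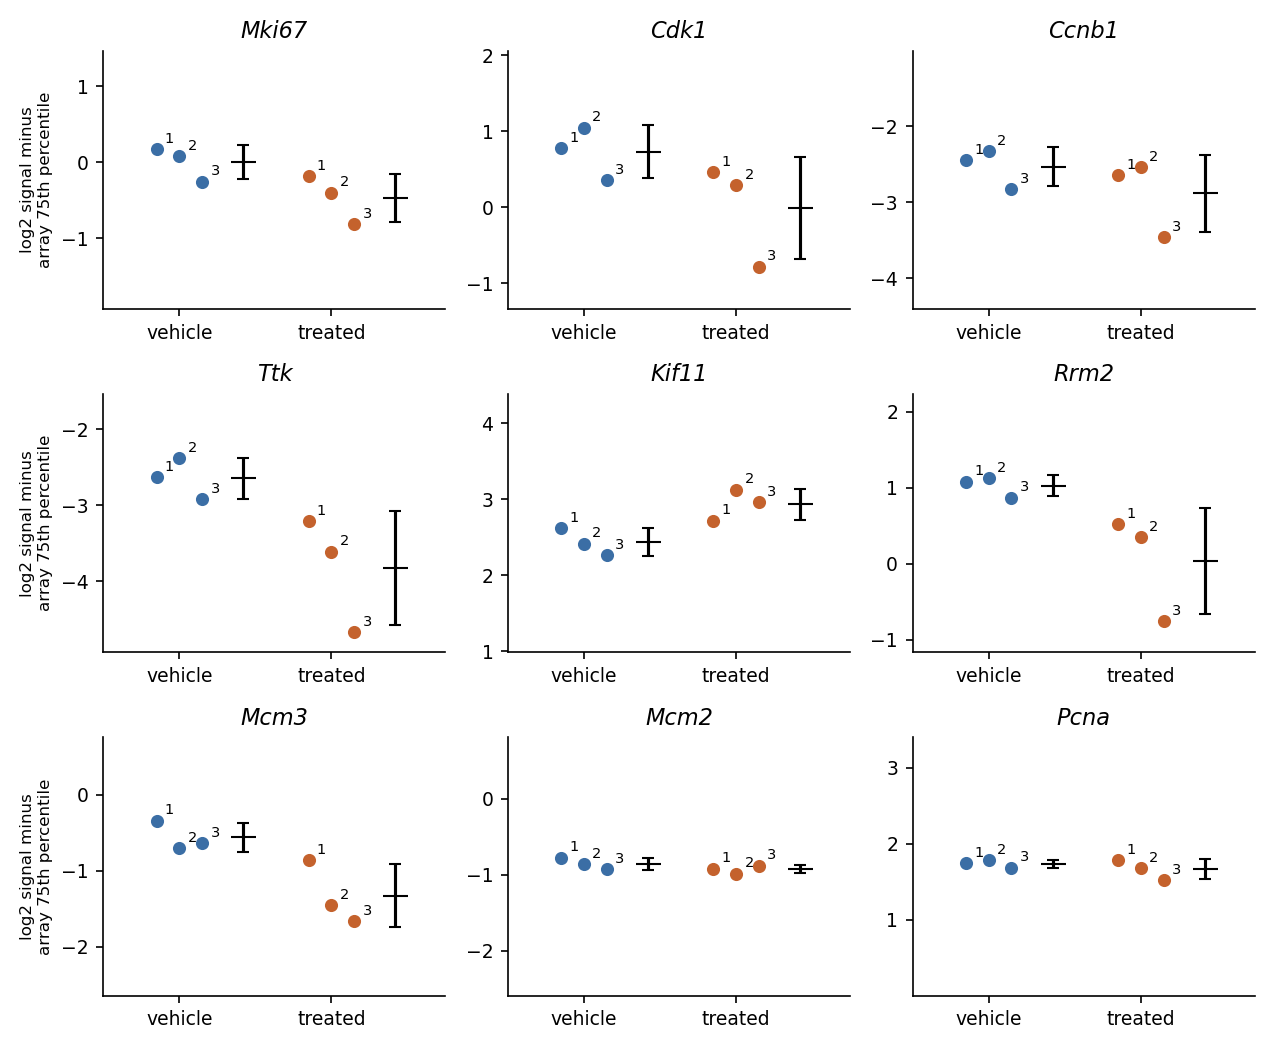
Log2 signal minus the array's 75th percentile (y axis, same span of 3.4 in each panel) of 9 genes in each animal; numbers are replicates and bars the mean ± SD (n = 3). Treated 3 is the lowest point for Mki67, Cdk1, Ccnb1, Ttk, Rrm2 and Mcm3, and for Pcna by a smaller margin (1.53), whereas Mcm2 overlaps between groups and Kif11 lies higher in all 3 treated animals.

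Other genes of the same pathways, not among the 42, were also examined. Of 32 measured other mitosis genes, 0 passed in limma, and 9 were lower and 3 higher at an unadjusted p under 0.05 (11.3% and 10.1% of all tested genes), with a median of -0.39. Their medians per array were 0.06, 0.08, -0.14 across vehicle animals 1 to 3 against -0.13, -0.25, -0.73 across treated animals 1 to 3. The treated arrays lay wholly below the vehicle arrays for 11 of the 32 and wholly above for 3 (16.8% and 13.9% of all tested genes). Ect2, which directs the cleavage furrow, had the lowest value at -0.96 (standard error 0.24, adjusted p 0.137 by limma). Incenp, the scaffold of the chromosomal passenger complex, had the highest at 2.13 (standard error 0.44, adjusted p 0.115 by limma). Its probe read -1.47, -1.22, -0.99 across vehicle animals 1 to 3 against -0.12, 1.27, 1.56 across treated animals 1 to 3, with the slide 2 arrays highest. Its partners Birc5 and Cdca8 had log2 fold changes of -0.12 and -0.35. Of 33 measured other replication genes, 0 passed in limma, and 9 were lower and 2 higher at an unadjusted p under 0.05 (11.3% and 10.1% of all tested genes), with a median of -0.13. For 10 of the 33 the treated arrays lay wholly below the vehicle arrays, and for 3 wholly above (16.8% and 13.9% of all tested genes). Pola1, the polymerase that starts new strands, was lowest at -0.65 (standard error 0.17, adjusted p 0.143 by limma), and Mcm10 was highest at 0.46 (standard error 0.18, adjusted p 0.236 by limma). Gins3, one of the 9 lower replication genes, cleared background on 1 treated array, and Cdt1 and Gins2 on 2. They entered through the vehicle group only, as did the other mitosis genes Cdca2 and Pbk, which cleared background on 2 treated arrays.

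Regulators of the G1 to S step showed no common direction. Of 14 measured, 7 had log2 fold changes below 0 and 7 above, with a median of 0.01. In limma 0 passed, and 1 was lower at an unadjusted p under 0.05, where 11.3% of all tested genes were. The lowest was Ccne2, cyclin E2, at -0.57 (standard error 0.19, adjusted p 0.190 by limma), and the highest was Myc at 0.39 (standard error 0.31, adjusted p 0.491 by limma). Of 16 CDK inhibitors and p53 targets, 0 passed in limma, and 3 were higher and 1 lower at an unadjusted p under 0.05 (10.1% and 11.3% of all tested genes), with a median of 0.03. The treated arrays lay wholly above the vehicle arrays for 6 of the 16 (13.9% of all tested genes) and wholly below for 0 (16.8% of all tested genes). Plk3, a stress-responsive kinase, was highest at 1.28 (standard error 0.31, adjusted p 0.136 by limma), and Plk2 was lowest at -0.50 (standard error 0.19, adjusted p 0.219 by limma). The other 2 higher genes were the stress gene Gadd45a at 0.81 (SE 0.20) and the antiproliferative gene Btg2 at 0.49 (SE 0.17). Cdkn1a, the p53-induced inhibitor p21, read 5.02, 5.08, 4.97 in vehicle animals 1 to 3 against 5.12, 5.06, 4.88 in treated animals 1 to 3, which is a log2 fold change of -0.005 (standard error 0.09, adjusted p 0.979 by limma). Its direction turned under 7 of the 17 alternatives, to 0.49 with the mean over its probes. Mdm2 and Ccng1, also p53 targets, had -0.08 (SE 0.08) and 0.16 (SE 0.07).

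Leukocytes can themselves divide, and their markers were examined in the same arrays. The 6 measured lymphocyte markers had medians of 0.17, -0.25, 0.05 across vehicle animals 1 to 3 against -0.10, -0.49, -0.47 across treated animals 1 to 3. Their summed linear signal ranged from 1.86 to 2.36 in vehicle and from 1.48 to 2.13 in treated arrays. The 9 macrophage markers had medians of 0.20, -0.22, 0.05 in vehicle animals 1 to 3 against -0.03, -0.38, -0.37 in treated animals 1 to 3, with sums of 91.8 to 109.5 and of 70.9 to 107.7. In both lists 0 genes passed in limma and 2 were lower at an unadjusted p under 0.05 (11.3% of all tested genes). Of the lymphocyte pair, Cd2 cleared background on 1 treated array and entered through the vehicle group only. Cd3e was well above background on 2 of 6 arrays. Vehicle 2, with the highest mitosis median, had the lowest leukocyte marker medians among the vehicle arrays. Treated 2 and 3 had nearly the same leukocyte medians, and their mitosis medians were -0.41 and -1.16. In both marker lists and in the mitosis genes, the medians of treated 2 and 3 lay below those of all vehicle arrays. The 5 markers of the S3 segment of the proximal tubule differed more than the cell cycle genes, with medians of -1.61, -0.02, 1.46 across vehicle animals 1 to 3 against 2.46, 1.44, 1.45 across treated animals 1 to 3 and summed signals of 25.8 to 108.4 and 109.7 to 225.5. Vehicle 3, the vehicle array with the lowest mitosis median, had the highest S3 median of its group. Treated 1 had the highest S3 median of the 6 arrays and a mitosis median of -0.27, close to that of vehicle 3 (-0.28). The 5 measured fibroblast markers had -0.33, 0.09, 0.26 across vehicle animals 1 to 3 against 0.19, -0.06, -0.58 across treated animals 1 to 3, with treated 3 lowest and summed signals of 14.7 to 27.9 and 16.0 to 25.8. The part of these cells and segments, and of the liver transcripts that were highest in treated 3, in the result was not tested.

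**Figure D4:**
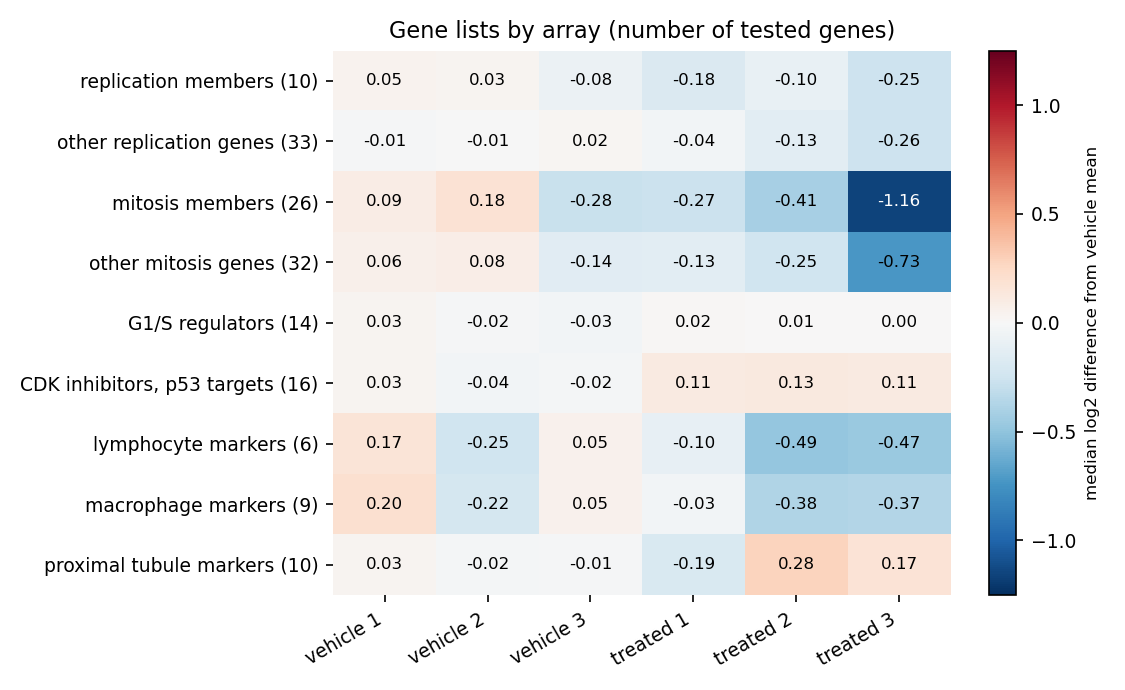
Median log2 difference from the vehicle mean for each gene list (rows, number of tested genes in parentheses) on each array (columns); blue is lower and red higher. The mitosis rows reach -1.16 and -0.73 in treated 3, while the G1/S row stays between -0.03 and 0.03.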

How the data were processed

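The 42 genes and all lists were chosen with earlier results of these data known. The spot intensity values were deposited by the authors as background-subtracted Feature Extraction output (10.7.1.1 per the file headers, 10.7 in the submitters' processing notes). The deposited series table served as an alternative. Here each array was scaled by its own 75th percentile, taken across 61537 probes that are not controls, and put on a log2 scale. Spots flagged as feature outliers (11 probes) were dropped, and 0 were saturated. A RefSeq table (GRCr8) gave 28206 probes 1 symbol and 33331 none, by unversioned accession. Probes well above background on all 3 arrays of a group were tested with limma 3.58.1 (R 4.3.3, lmFit and eBayes, two-sided), and p-values were adjusted over 40643 probes by Benjamini-Hochberg. In simulated data of that size, 52% of 50 probes shifted by a log2 change of 1 were called, as were 8 unchanged probes. The simulated noise was independent between probes, with no shift shared by an array or slide. The 52% is thus not the share to be found in this gene set. The number of arrays limits the precision. Values on every array are given for Mki67, Ccnb1, Cdk1, Ccnd1, Pcna, Mcm2 and Rrm2, for the lowest and highest gene of each role group, for genes whose probes differed by over 0.5 and, chosen after their values were seen, for Mcm3, Prc1, Incenp and Cdkn1a. Other lists are named by their lowest and highest genes and Cdkn1a, Mdm2 and Ccng1, and Gadd45a, Btg2 and Cd2 were named after their values were seen. Gins3, Cdt1, Gins2, Cdca2 and Pbk are named because they did not clear background on every treated array.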

Additional observations from a re-analysis of the deposited data

How the results depend on the processing

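Of 34 genes measured under all 17 alternatives, 27 kept their direction and 7 did not, and the other 3 (Cdca8, Cenpf, Kif2c) kept theirs under the 16 that could be run. With single arrays left out, the median log2 fold change was -0.75 to -0.33 for mitosis and -0.24 to -0.14 for replication, the difference between the sets was 0.20 to 0.61, and 0 to 6 genes of the set were called. Without treated 1, those called were Mcm3, Mcm4, Foxm1, Pttg1 (-0.45), Nuf2 (-1.11) and Kif23 (-0.52), and Incenp (2.64) was called too. The difference between the sets was 0.086 with slide as a fixed block and within slide 1. With normexp background correction it was 0.21, against 0.43 as reported. The medians were then -0.36 for mitosis and -0.13 for replication, against -0.57 and -0.19. Directions turned for Mcm2 with normexp (0.00879) and, with slide as a fixed block or within slide 1, for Mcm7 (0.066), Pcna (0.047), Cdc20 (0.089), Pttg1 (0.023), Birc5 (0.14) and Cdkn1a (0.092). With single arrays left out, Ccnd1 ranged from -0.13 to 0.27 and Cdkn1a from -0.054 to 0.064. Cdkn1a also turned with median centring (0.033), slide as a random block (0.038) and the mean over probes (0.49), and Mdm2 turned with the last (0.075).

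Probes called were 3 as reported, 136 with normexp, 17 with median centring, 1 without a filter or with slide as a fixed block, 0 when a probe had to be detected on each of the 6 arrays, 280 within slide 1, where treated 1 is assumed to vary like the vehicle arrays, and 1 to 4235 with single arrays left out. Replicate numbers did not pair the animals (correlations of same-numbered deviations -0.21, 0.01 and -0.16), and the replicate block called 0 probes, with 21 genes of the set lower at an unadjusted p under 0.05 against 12 without it (9.64% of all tested genes with it). With slide as a fixed block or within slide 1, the medians were -0.037 for other replication and -0.13 for other mitosis genes. The median of CDK inhibitors and p53 targets was 0.066 with median centring, -0.0050 without a filter, 0.11 with slide as a fixed block and within slide 1, 0.057 with slide as a random block, 0.14 with the mean over probes and 0.019 to 0.10 with single arrays left out. The G1/S median was 0.051 with median centring, 0.041 without a filter, 0.040 with the mean over probes and -0.041 to 0.040 with single arrays left out. Causes were not tested.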
